A study of Homo sapiens with 6 samples.

Results

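The genes examined were 8 members of the RAL pathway and of the c-Jun N-terminal kinase (JNK) module: the small GTPases RALA and RALB, their activator RALGDS, the JNKs MAPK8, MAPK9 and MAPK10, and the JNK-activating kinases MAP2K4 and MAP2K7. They were chosen by gene name from the annotation of the array, which holds 36337 different gene names, by a rule that uses no measured value, although earlier results of these data were known when the genes were proposed. All 8 genes had a tested probe, as did 23807 of all names. The 8 genes have 13 probes, of which 12 passed the detection filter and were tested. Those 12 were well above background on all 6 arrays.

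RNA was analyzed from 6 xenograft tumors that had grown from the human pancreatic cancer line BxPC-3 under the skin of young adult female BALB/c nude mice. The DFX group (n = 3) received deferasirox (DFX), an oral iron chelator, suspended in saline at 200 mg/kg, 3 times per week for 21 days, and the Control group (n = 3) received the vehicle alone. Both groups carry the same xenografted cell line, and the host lacks mature T cells but keeps its other cells, so that mouse RNA may be present beside the human RNA. No source used here states that each tumor came from a different mouse. The limma p-values set the group difference against the spread between these tumors, which limma estimates partly from all probes together.

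RALA and RALB switch between a GDP-bound and a GTP-bound state and, when active, engage effectors such as the exocyst, a complex that tethers secretory vesicles. RALGDS loads them with GTP downstream of RAS, and the RAL branch is known for its part in the growth of pancreatic cancer cells. In the JNK module, MAP3 kinases phosphorylate MAP2K4 and MAP2K7, these phosphorylate the JNKs, and the JNKs phosphorylate transcription factors such as c-Jun in response to stress. Both switches operate through bound nucleotide and phosphorylation, which transcript levels do not measure.

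The sequences of 4 JNK probes are shown because each has a reading frame without a stop codon, and because they include the MAPK8 probe that passed the test and the MAPK8 probe nearest to it, beside a probe of each other JNK gene. They are printed 5′ to 3′ on the transcript strand, and capitals mark the codons of the conserved kinase motif known as DFG, which a script found in a single probe. On hg19, the MAPK8 probe with these codons lies at chr10:49628233-49628292 and the other MAPK8 probe at chr10:49634025-49634084, both on the plus strand. The MAPK9 probe lies at chr5:179669667-179669726 and the MAPK10 probe at chr4:86950351-86950410, both on the minus strand. Exon and UTR positions were not analysed here.
MAPK8 A_33_P3250289: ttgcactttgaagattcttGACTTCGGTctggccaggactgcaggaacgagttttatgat
MAPK8 A_23_P356152: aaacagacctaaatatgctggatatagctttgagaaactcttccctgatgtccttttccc
MAPK9 A_23_P167692: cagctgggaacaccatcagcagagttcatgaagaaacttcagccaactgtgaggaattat
MAPK10 A_33_P3254216: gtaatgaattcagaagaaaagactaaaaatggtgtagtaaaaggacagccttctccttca

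Of the 12 tested probes, 1 passed an unadjusted p of 0.05 in limma (8.33%), a MAPK8 probe that was lower with DFX, and the share among all 31803 tested probes was 8.41%. The most negative difference, that of MAP2K4, did not pass. In either set, 0 probes passed a Benjamini-Hochberg adjusted p of 0.05, and the lowest adjusted p among all probes was 0.0675. The lower direction held 1573 of the 2675 called probes (58.8%), or 4.95% of those tested, and the higher direction 3.47%. With 75th percentile scaling in place of quantile normalization, 42.6% of the called probes were lower, and with median scaling 71.8%. The log2 fold change (DFX minus Control throughout) was negative for 9 of the 12 RAL and JNK probes and positive for 3, and these 3 were negative under median scaling. Its median over the 12 probes was -0.07, against -0.02 over all tested probes. The median size regardless of sign was 0.08 for the 12 probes and 0.16 for all. These sets are unlike, as the 12 were all well above background on every array, against 24363 of the 31803 tested probes. In tumor RNA, fewer cells that express a gene and less of its RNA per cell cannot be told apart.

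**Figure D1:**
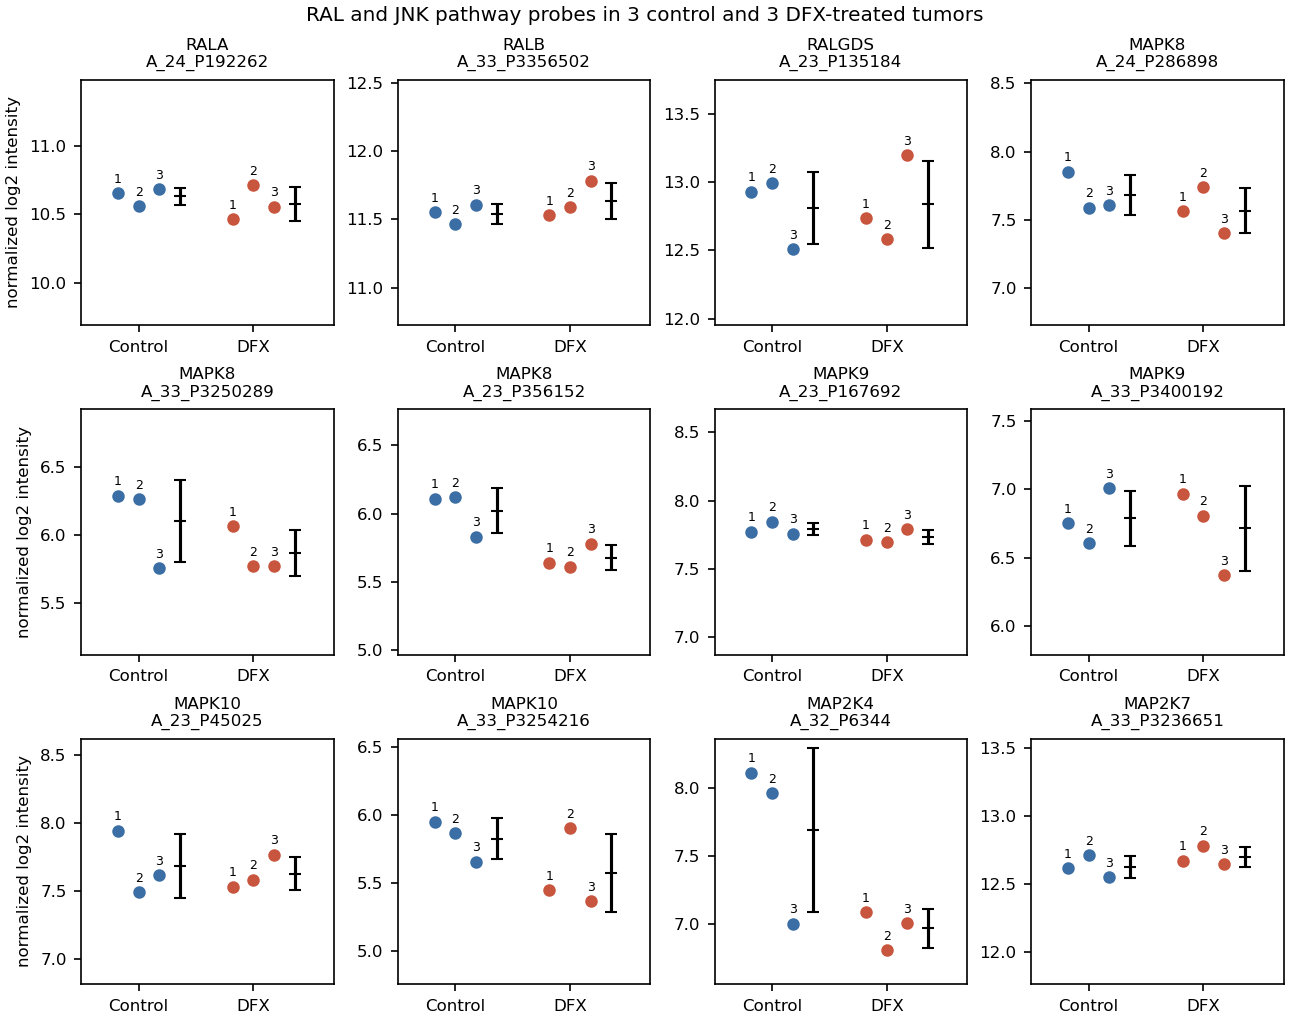
Normalized log2 intensity of the 12 tested RAL and JNK probes in each tumor, with 1 panel per probe, the replicate number above each point, and the mean and SD of each group (n = 3) to its right. Each axis spans the same log2 range; the groups are separate only for MAPK8 A_23_P356152, and MAP2K4 holds the widest gap between tumors of a group, with Control 1 at 8.11, Control 2 at 7.96 and Control 3 at 7.00.

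The levels of RALA, which is the RAL protein most often tied to the growth of tumor cells without anchorage, overlapped between the groups. Its probe (chr7:39747399-39747458, plus strand) read 10.65, 10.56 and 10.68 on the normalized log2 scale in Control 1, 2 and 3, and 10.46, 10.71 and 10.56 in DFX 1, 2 and 3. The lowest and the highest reading were both from DFX tumors. The mean was 10.63 ± 0.063 in the controls and 10.58 ± 0.13 with DFX (SD). The difference of -0.05 had a standard error of 0.11 (adjusted p = 0.907 in limma), and its 95% confidence interval ran from -0.33 to 0.22.

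RALB, the closely related GTPase known for its part in cell survival and innate immune signaling, was also measured by a single probe (chr2:121052201-121052260, plus strand). It read 11.55, 11.46 and 11.61 in the controls and 11.53, 11.59 and 11.79 in the DFX tumors. DFX 3 was the highest of the 6, and the other readings overlapped. The difference was 0.09 with a standard error of 0.12 and an interval from -0.19 to 0.38 (adjusted p = 0.834 in limma). Neither interval for RALA or RALB contains a change of 0.5 on the log2 scale in either direction.

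RALGDS, the exchange factor that couples RAS to both GTPases, varied more within the groups than between them. Its probe (chr9:135973212-135973271, minus strand) read 12.93, 12.99 and 12.51 in the controls and 12.74, 12.58 and 13.20 with DFX. The low control was Control 3 and the high treated tumor DFX 3. The difference was 0.03 with an interval from -0.50 to 0.55 (adjusted p = 0.98 in limma), and it turned to -0.12 without Control 3 and to -0.15 without DFX 3.

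MAPK8, which encodes JNK1, had 3 probes, and all read lower on average with DFX. The probe A_23_P356152 read 6.11, 6.12 and 5.83 in the controls and 5.64, 5.61 and 5.78 in the DFX tumors. The groups did not overlap, with 0.05 between Control 3, the lowest control, and DFX 3, the highest treated tumor. Groups without overlap were found for 15.5% of all tested probes. The means were 6.02 ± 0.16 in the controls and 5.68 ± 0.09 with DFX (SD), so that the intensity fell by 21.2% on the linear scale. The log2 fold change was -0.34 with a standard error of 0.13, an interval from -0.65 to -0.03 and an unadjusted p of 0.0347, and its adjusted p was 0.576 (limma). MAPK8 is labeled in the study's heatmap of pathway genes from the same arrays, and this call is not independent evidence of its direction.

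The other MAPK8 probes overlapped between the groups. A_33_P3250289, which holds the DFG codons, read 6.29, 6.26 and 5.76 in the controls and 6.06, 5.77 and 5.77 with DFX. Control 3 again read like the treated tumors. Its difference was -0.23 with an interval from -0.69 to 0.22 (unadjusted p = 0.253 in limma), and without Control 3 it was -0.41 with an unadjusted p of 0.034. A_24_P286898 (chr10:49647005-49647064, the most downstream of the 3) read 7.85, 7.59 and 7.60 in the controls and 7.56, 7.74 and 7.40 with DFX. Its difference was -0.11 with an interval from -0.45 to 0.23 (unadjusted p = 0.443 in limma). The mean of the 3 probes gave a MAPK8 difference of -0.23 with a standard error of 0.13 and an unadjusted p of 0.12.

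The call for MAPK8 A_23_P356152 was lost under 8 of 19 alternatives, and the direction was negative under all 19, from -0.44 to -0.17. Alternatives that change only the filter, the test or the block of replicate numbers keep the difference at -0.34, so their sign was fixed in advance. None of the 19 uses other tumors. Among the alternatives, the Kruskal-Wallis H test passes with 3 tumors a group whenever the groups do not overlap. It therefore adds nothing for this probe or for other probes reported as separate. The call was lost without Control 1, Control 2, DFX 1 or DFX 2, where the differences were -0.30, -0.29, -0.33 and -0.31 and the unadjusted p-values 0.0981, 0.105, 0.0976 and 0.0976. It was also lost with 75th percentile scaling (-0.25, unadjusted p = 0.162) and with another background correction (-0.18, unadjusted p = 0.0696). Within column 2 of the slide, which holds Control 1 and DFX 2, the difference was -0.50, and within column 4, which holds Control 3 and DFX 3, it was -0.05. With the column as a block it was -0.28 (unadjusted p = 0.341 in limma). Control 2 and DFX 1 are alone in their columns, so this fit, here and below, rests on the tumors of columns 2 and 4. A call lost with it cannot show an effect of the column.

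**Figure D2:**
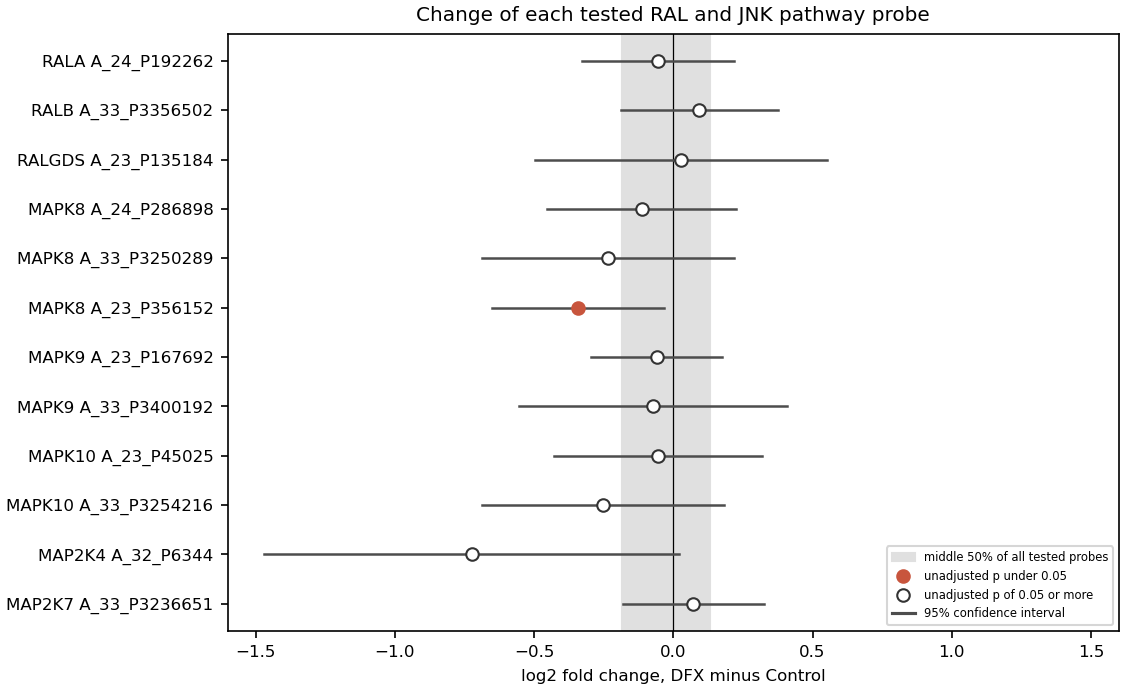
Log2 fold change (DFX minus Control, horizontal axis) of each tested RAL and JNK probe with its 95% confidence interval from limma, beside the middle 50% of all tested probes (-0.18 to 0.13, grey). The interval excludes 0 for MAPK8 A_23_P356152 alone, and MAP2K4 has the most negative value (-0.72) and the widest interval.

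MAPK9, which encodes JNK2, the other JNK of most tissues, read evenly across the tumors with the probe A_23_P167692. Its values were 7.77, 7.85 and 7.76 in the controls and 7.71, 7.69 and 7.79 with DFX. The difference of -0.06 had the smallest standard error of the 12 probes, 0.096, and an interval from -0.30 to 0.18 (unadjusted p = 0.561 in limma). A_33_P3400192 (chr5:179673231-179673290, minus strand), designed on another transcript of the gene, spread more widely. It read 6.75, 6.61 and 7.01 in the controls and 6.97, 6.81 and 6.37 with DFX, with a difference of -0.07 and an interval from -0.55 to 0.41 (unadjusted p = 0.724 in limma). Its sign turned without Control 3 (0.04) and without DFX 3 (0.10).

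MAPK10 encodes JNK3, known mainly from the nervous system, heart and testis. Its probe A_23_P45025 (chr4:86938039-86938098, minus strand) read 7.94, 7.49 and 7.62 in the controls and 7.53, 7.58 and 7.77 with DFX. Control 1 was the highest, and the difference of -0.06 (interval -0.43 to 0.32, unadjusted p = 0.729 in limma) became 0.07 without it. A_33_P3254216 read 5.95, 5.87 and 5.66 in the controls and 5.45, 5.90 and 5.37 with DFX. DFX 2 read like the controls and the other DFX tumors lay below all of them. The difference was -0.25 with an interval from -0.69 to 0.18 (unadjusted p = 0.205 in limma), and without DFX 2 it was -0.42 with an unadjusted p of 0.0342. Of 4 neuronal marker genes, 3 were also well above background on all arrays by their brightest probe, and 0 of the 6 tested neuronal probes passed the unadjusted threshold. Other probes of these genes were weaker. The second RBFOX3 probe (mean 4.09 in the controls, 3.62 with DFX) was well above background on 2 control and 0 DFX arrays. The second SYT1 probe was so on 0 control arrays and 1 DFX array. The grafted cells are a carcinoma line and the host is a mouse, whereas these probes are human. What the neuronal probes read here, and the part of neuronal RNA in the MAPK10 readings, was not tested.

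Probes of a gene were compared on each array, as the probe with the lowest p minus the brightest other probe of that gene. For MAPK8 this log2 difference was -1.66 ± 0.17 in the controls and -1.89 ± 0.25 with DFX (SD), a change of -0.23 (exact two-sided permutation test, p = 0.3). For MAPK9 the change was 0.01 (exact p = 1) and for MAPK10 -0.20 (exact p = 0.4). Adjusted over these 3 genes the exact permutation p-values were 0.6, 1 and 0.6, and the smallest p that 3 arrays against 3 allow is 0.1. That lower limit belongs to the exact permutation test, which could therefore not pass the threshold used for single probes. The first probe of each gene was also chosen by its p on these same arrays, so the comparison is not independent of that choice. Whether probes of a gene responded differently was thus left undecided.

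MAP2K4, the kinase that activates both JNK and p38, had the largest difference of the 8 genes and also the largest spread. Its tested probe A_32_P6344 (chr17:12046983-12047042, plus strand) read 8.11, 7.96 and 7.00 in the controls and 7.09, 6.81 and 7.01 in the DFX tumors. Control 1 and Control 2 lay well above every DFX tumor, whereas Control 3 lay between DFX 2 and DFX 3. The means were 7.69 ± 0.60 in the controls and 6.97 ± 0.14 with DFX (SD). The difference was -0.72 with a standard error of 0.30, an interval from -1.47 to 0.02, an unadjusted p of 0.0548 and an adjusted p of 0.599 (limma), so that it did not pass the threshold.

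The MAP2K4 value turned on Control 3. Without that tumor the difference was -1.07 with an unadjusted p of 0.000588, and without any other single tumor it lay between -0.78 and -0.51 and did not pass. It passed the unadjusted threshold under 6 of 19 alternatives, with differences from -1.07 to -0.48 over all 19. Within slide column 2 it was -1.30, and within column 4, which holds Control 3, it was 0.01. With the column as a block it was -0.65 (unadjusted p = 0.184). The other MAP2K4 probe, A_33_P3653330 (chr17:12045140-12045199), stood well above background on none of the arrays and was not tested.

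MAP2K7, which phosphorylates JNK but not p38, showed no such gap. Its probe (chr19:7979302-7979361, plus strand) read 12.62, 12.71 and 12.55 in the controls and 12.67, 12.78 and 12.65 with DFX. The difference was 0.07 with a standard error of 0.10 and an interval from -0.18 to 0.33 (unadjusted p = 0.514 in limma). An effect of MAP2K4 size in either direction lies outside this interval.

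**Figure D3:**
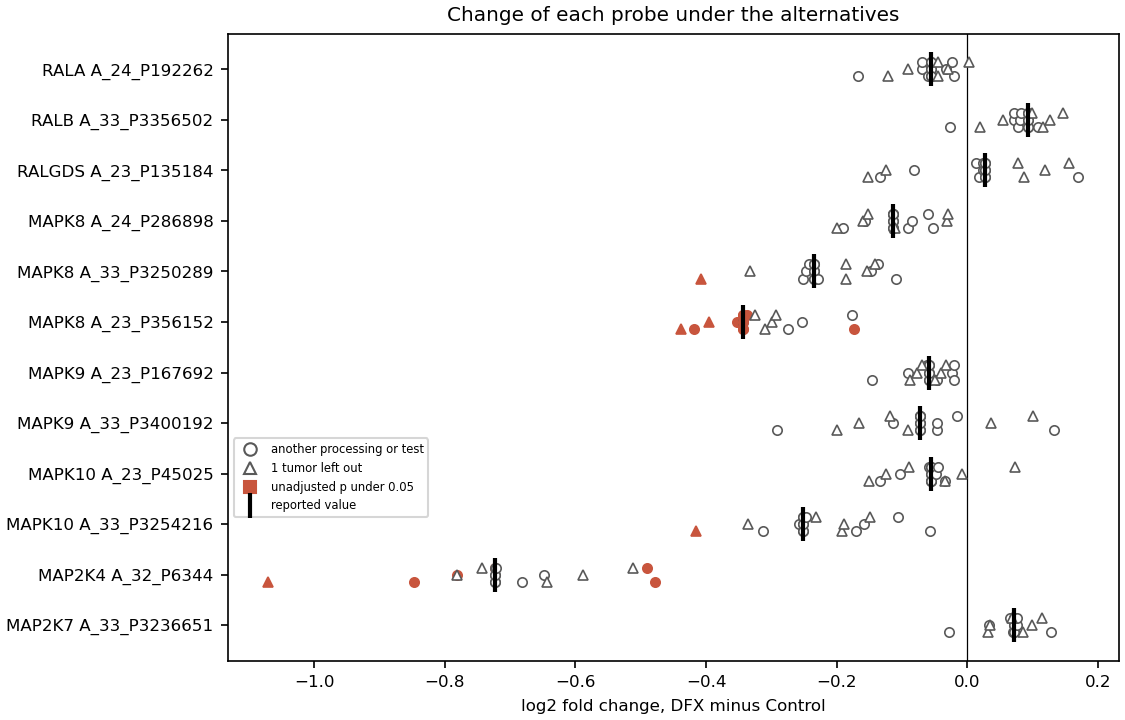
Log2 fold change (DFX minus Control, horizontal axis) of each tested RAL and JNK probe as reported (black bar) and under 19 alternatives, with circles for another processing or test, triangles for 1 tumor left out, and red for an unadjusted p under 0.05. MAPK8 A_23_P356152 is red under 11 alternatives and MAP2K4 under 6, and MAPK8 A_33_P3250289 and MAPK10 A_33_P3254216 are red for 1 each; points equal to the reported value lie behind its bar.

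The other genes of the RAL and JNK pathways were taken from 8 lists with 52 genes, of which 50 had a tested probe. Of their 83 tested probes, 5 passed the unadjusted threshold (6.02%, against 8.41% of all), 4 lower and 1 higher with DFX. The lowest adjusted p among the 83 was 0.522 (limma). The RAL lists held 3 of these calls among 38 probes (7.89%) and the JNK lists 2 among 45 (4.44%). With the slide column as a block, which rests on the tumors of columns 2 and 4 alone, 1 of the 5 still passed. It was the EXOC7 probe (-0.96, unadjusted p = 0.0292 in limma). The median log2 fold change was -0.04 over all lists (-0.06 to 0.01 when each tumor was left out) and -0.02 over all tested probes.

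Among the RAL activators, 1 of 7 tested probes passed. The median was 0.06, and its sign turned without Control 3 (-0.14), with array weights (-0.07) and with median scaling (-0.05). RGL2, an exchange factor related to RALGDS, read 10.35, 10.35 and 10.15 in the controls and 10.04, 9.97 and 9.96 with DFX. All DFX tumors lay below all controls, and the difference was -0.29 with a standard error of 0.11 (unadjusted p = 0.0359, adjusted p = 0.578 in limma). The call held under 12 of 19 alternatives and was lost without each tumor except Control 3. In the RAL GAP complex, which returns RAL to its GDP-bound state, 0 of 5 probes passed, with a median of -0.06 that ran from -0.15 to 0.01 when each tumor was left out.

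Of the RAL effectors, 1 of 13 tested probes passed, and the median was -0.08. EXOC2, the exocyst subunit SEC5 that binds active RAL, read 7.58, 7.55 and 7.79 in the controls and 7.20, 7.42 and 7.31 with DFX. The groups were separate, with a difference of -0.32 and a standard error of 0.12 (unadjusted p = 0.0359 in limma). It did not pass without Control 1, Control 3, DFX 1 or DFX 3, where it was -0.35, -0.25, -0.27 and -0.33.

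The remaining exocyst subunits had 1 of 13 probes past the threshold. EXOC7, the subunit EXO70 that anchors the complex at the plasma membrane, read 6.77, 6.85 and 7.81 in the controls and 6.33, 6.15 and 6.52 with DFX on the probe A_33_P3390024. Control 3 was far above the rest, and the difference of -0.81 with a standard error of 0.30 (unadjusted p = 0.0351 in limma) was -0.48 without it (unadjusted p = 0.0233). The call was lost without DFX 1 (-0.81), DFX 2 (-0.72) or DFX 3 (-0.91). The other EXOC7 probes differed by 0.12, -0.11 and 0.14, with overlap between the groups.

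In the JNK lists, 0 of 25 probes of the MAP3 kinases passed, with values from -0.22 to 0.26 and a median of 0.01, which was -0.09 with median scaling. Several of these probes lie close together on the same non-coding transcript of MAP3K13, with values from -0.03 to 0.06. The 25 probes are therefore not separate readings, and the median itself falls on a MAP3K13 probe. Of the JNK scaffolds, 1 of 7 probes passed. SPAG9, also known as JIP4, read 7.11, 7.39 and 7.39 in the controls and 7.61, 7.66 and 7.59 with DFX on the probe A_24_P8454, a difference of 0.32 with a standard error of 0.12 (unadjusted p = 0.0354 in limma). The other SPAG9 probe, A_24_P365025, differed by -0.14 (unadjusted p = 0.273 in limma). The call on A_24_P8454 was lost without Control 1 (0.23), without any single DFX tumor (0.30 to 0.34) and with median scaling (0.25).

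Of the JNK phosphatases, which remove the activating phosphates, 1 of 7 probes passed and 6 of 7 had negative values. These are not separate genes, as DUSP8 gave -0.12, -0.10 and -0.36. The DUSP8 probe at -0.36 was well above background on 1 control array and 0 DFX arrays. The median of the list was -0.19, and it was -0.03 without DFX 1, -0.07 without Control 1, -0.35 without Control 3 and -0.03 with the slide column as a block. DUSP16, a phosphatase that prefers JNK, read 6.76, 6.54 and 6.25 in the controls and 5.93, 6.03 and 6.00 with DFX. All DFX tumors lay below all controls, with a difference of -0.53 and a standard error of 0.15 (unadjusted p = 0.0135, adjusted p = 0.522 in limma). The call held without each tumor in turn (-0.66 to -0.41) and under 17 of 19 alternatives, although the difference was only -0.25 with either normexp background correction or the raw mean signal, and it was lost with 75th percentile scaling (-0.44, unadjusted p = 0.0503) and with the slide column as a block (-0.49, unadjusted p = 0.134). Of the JNK substrate transcription factors, 0 of 6 probes passed. JUN, the namesake substrate, differed by -0.14 (unadjusted p = 0.423 in limma), and the list had a median of -0.18 (-0.28 to -0.13 when each tumor was left out).

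**Figure D4:**
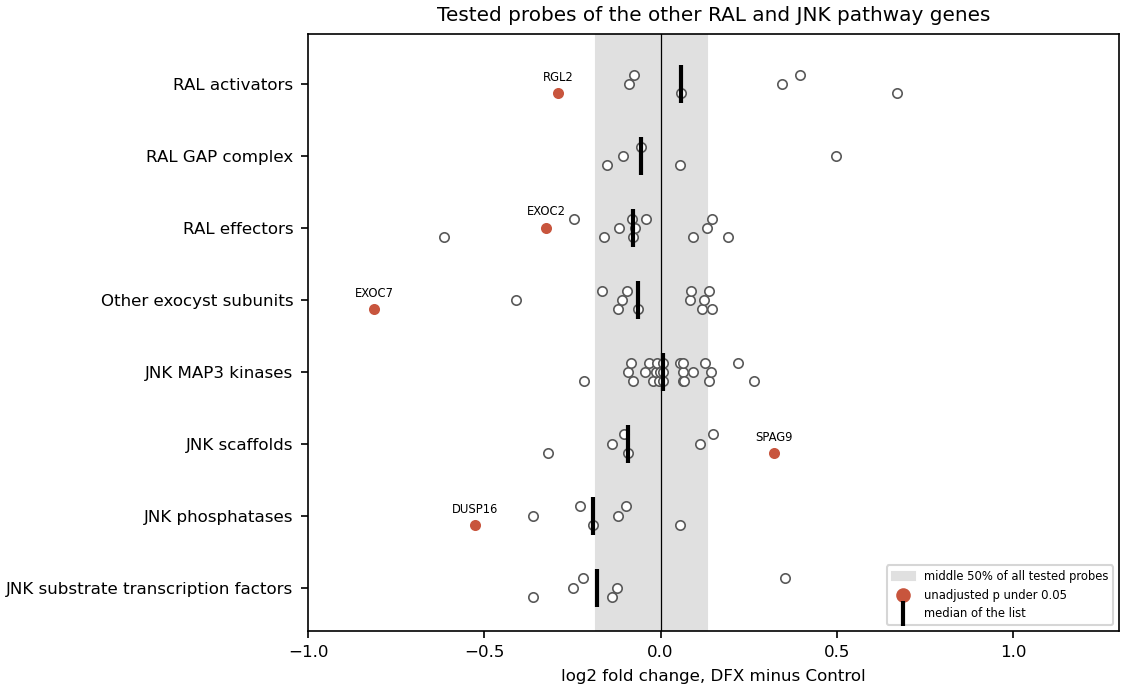
Log2 fold change (DFX minus Control, horizontal axis) of the 83 tested probes in 8 lists of RAL and JNK pathway genes, with 1 point per probe, the median of each list (black bar) and the middle 50% of all tested probes (grey). The 5 labeled red points passed an unadjusted p of 0.05: RGL2, EXOC2, EXOC7 and DUSP16 were lower with DFX, and SPAG9 was higher.

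For RALA and MAPK8, each by its brightest probe, the other genes with the most similar profile over the 6 arrays were sought. The search began from the 24363 tested probes well above background on all arrays. Probes of the gene itself and probes without a gene name were then left out. Likeness was the mean absolute difference of log2 values centered on each probe's own mean. For RALA, whose values spanned 0.25, the closest were HMX1 (0.0118), NRBF2 (0.0221) and PDSS2 (0.0222). For MAPK8 A_24_P286898, whose values spanned 0.45, they were C20orf196 (0.0198), PIGK (0.0199) and CRADD (0.0208). These likenesses are a description over 6 arrays that share a slide.

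All 6 arrays lay on 1 slide, with the controls in row 1 and the DFX tumors in row 2, so that row and treatment cannot be told apart. Per array, the share of probes well above background ran from 50.3% to 56.5%. The epithelial markers fit the label: all 6 genes were well above background on every array, with a summed log2 level from 19.24 to 19.25 in the controls and from 19.27 to 19.30 with DFX, and 3 of 9 tested probes were called higher. KRT19 was the largest part of that sum, with a mean of 18.47 in the controls and 18.49 with DFX. Quantile normalization gives such bright probes shared values across arrays, so the narrow range does not measure the share of tumor cells. Of the red blood cell markers, 2 of 4 tested probes were called, both lower with DFX and both of HBA2 over nearly the same bases (-1.93 and -1.99), whereas the other HBA2 probe (-0.46) and HBB (-0.45) did not pass. Their summed level ran from 12.31 to 12.69 in the controls and from 10.58 to 10.69 with DFX. This sum, like the others here, takes the brightest probe of each gene. Nearly all of it was a called HBA2 probe (mean 12.46 in the controls, 10.53 with DFX), as HBB was weaker (7.44 and 6.98). It therefore restates that probe and not a set of genes. The endothelial markers had 3 of 7 tested probes called higher, all of PECAM1 (1.27, 1.65 and 2.22), whereas VWF (-0.58 and -0.14), CDH5 (-0.09) and KDR (-0.29) did not pass, and the summed levels ran from 8.91 to 9.89 and from 9.12 to 9.23. The PECAM1 probe at 2.22 was well above background on 0 control arrays and 1 DFX array. It read 6.90 in DFX 1, against 3.67 in DFX 2 and 4.05 in DFX 3. The fibroblast markers ranged from 13.52 to 14.22 and from 13.36 to 13.68, with 1 of 6 tested probes called in each direction, and the leukocyte markers from 11.57 to 11.96 and from 11.65 to 11.82, with 0 of 5 called. Of the markers, PDGFRB, CSF1R and KDR stood well above background on none of the arrays. The arrays hold human probes, whereas the host cells of these xenografts are of the mouse. Whether the red blood cell, endothelial, fibroblast and leukocyte probes read host cells or the tumor cells was not tested. The part of such cells in the MAPK8, MAP2K4 and DUSP16 readings was not tested either.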

How the data were processed

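The authors deposited scanner intensities of 6 one-color human 60-mer arrays, 1 per tumor, with a background-subtracted processed signal and a p-value of each spot against its background, and a table of normalized linear intensities. Per the file headers, Feature Extraction 10.7.1.1 was used; the submitters' notes name 9.5.1.1. The study's methods give log2 transformation and quantile normalization of the raw signal without naming its column. Here both steps were applied to the background-subtracted processed intensity, with the raw mean signal as an alternative, over 58717 non-control spots. Then 1398 flagged spot values were left out, spots were averaged per probe, and a probe was tested if the median detection p-value of its spots was under 0.05 on each of the 6 arrays (31803 of 50599, after 4 probes without a usable spot on some array were dropped). No test is named for the arrays, and lmFit and eBayes of limma 3.58.1 (R 4.3.3) were used, and p-values were adjusted over all tested probes by Benjamini-Hochberg. No sample was left out. The number of arrays limits the precision. The procedure was tested on simulated data.

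Named were the 8 genes with every probe, list genes with a probe at an unadjusted p under 0.05, the 3 probes most like RALA and MAPK8, and markers. JUN was named after its value was seen. Genes and lists were chosen with earlier results of these data known. Some results that the rule covers are not reported here. YBX3 and MAP3K20 were matched by the older names CSDA and ZAK, and HBA1 was not matched. Probe positions are on hg19, as in the files. The alternatives covered normalization, background correction, signal column, detection filter, flags, the authors' table, test, array weights, replicate number, slide column and each tumor left out.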

Additional observations from a re-analysis of the deposited data

How the results depend on the processing

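The number of RAL and JNK probes called, 1 as reported, was 0 with 75th percentile scaling, the replicate number as a block, the slide column as a block and 1 averaged value per gene, 2 with median scaling, the raw mean signal, the filter on probes well above background and array weights, and between 0 and 3 when each tumor was left out. The number of pathway list probes called, 5 as reported, was 8 by the Kruskal-Wallis H test, 3 with the replicate block and 2 with the slide column as a block, and between 1 and 4 when each tumor was left out. Of the 5, 2 were among those called with the replicate block and 1 with the slide column. Over all probes, 4927 were called by the Kruskal-Wallis H test, 4213 with array weights and 1418 with the slide column as a block, against 2675, and 1889 to 2717 when each tumor was left out. The Kruskal-Wallis count equals the count of probes whose groups do not overlap, because 3 against 3 tumors pass that test only then. With the slide column as a block, only the tumors of columns 2 and 4 add to the estimate. At an adjusted p of 0.05, between 0 and 3 probes were called over all alternatives. Under median scaling the median of all tested probes was -0.10, and RALB (-0.0265), RALGDS (-0.0809) and MAP2K7 (-0.0285) turned negative but lay above that median. With array weights RALGDS was -0.13 and MAPK9 A_33_P3400192 was 0.13. When each tumor was left out, RALA ranged from -0.12 to 0.00242, RALGDS from -0.15 to 0.16, MAPK9 A_33_P3400192 from -0.20 to 0.10 and MAPK10 A_23_P45025 from -0.15 to 0.0733. The change in the difference between the MAPK9 probes was -0.03102 under either scaling (by the 75th percentile or the median), and ranged from -0.19 to 0.15 when each tumor was left out. The cause was not tested. No source used here states whether the replicate numbers pair the tumors. The deviations of tumors with the same number correlated at only 0.0274, 0.0267 and 0.0158, which cannot show how the tumors were handled. With 3 tumors a group, the standard errors of the 12 probes ran from 0.10 to 0.30 on the log2 scale, which limits the size of change that could be detected.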
